A study of Mus musculus with 8 samples.

Results

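The messenger RNA levels of 30 genes of cholesterol and fatty acid synthesis were examined in microglia, the macrophages that reside in brain tissue, taken from 6-month-old C57BL/6 mice. The genes were chosen by symbol from the deposited table of 55421 genes. They comprise the enzymes of the mevalonate and sterol routes, the regulators of the sterol regulatory element-binding proteins (SREBPs), a sterol carrier, and the enzymes of fatty acid synthesis. All 30 were present in the table, and all 30 were among the 22089 genes with enough counts to be tested. RNA-seq, which counts sequenced fragments of RNA per gene, had been done on 8 libraries in 4 groups of 2. The first 2 groups carried Alzheimer's disease, as a conditional knockout of Calhm2 (cKO/AD) or as wild type (WT/AD). The other 2 did not, again as a conditional knockout (cKO) or wild type (WT). Calhm2 encodes a membrane channel of the CALHM family. The sources used here do not give the mouse model of the disease or the driver of the knockout. Nor do they say that a group's 2 libraries are from different animals, so p-values reflect library-to-library spread, which may be technical.

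Cholesterol is built from acetyl-CoA in a long chain of enzymes: acetyl units are joined to mevalonate, mevalonate is turned into isoprene units and squalene, and squalene is folded into lanosterol and trimmed to cholesterol. When membrane sterol is low, the escort protein Scap carries SREBPs from the endoplasmic reticulum to the Golgi, where proteases release a fragment that switches on sterol and fatty acid genes in the nucleus. When sterol is plentiful, the Insig proteins hold the Scap complex back. In the brain, cholesterol is made locally, since plasma lipoproteins do not cross the blood-brain barrier, and microglia take up and process large amounts of it from myelin debris.

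The libraries held 18218165 to 25774587 counts. Levels are given as CPM, the counts of a gene per 1000000 counts of its library after scaling with TMM factors, which correct for differences in composition between libraries. Calhm2, the targeted gene, was at 2.50 and 1.56 CPM in cKO/AD, against 16.4 and 13.7 CPM in WT/AD; it was lower in cKO/AD (log2 fold change -2.89, SE 0.495, adjusted p = 0.01 by edgeR's quasi-likelihood test). It was at 4.76 and 4.70 CPM in cKO, against 10.3 and 12.03 CPM in WT, and this difference did not pass (log2 fold change -1.24, SE 0.466, adjusted p = 0.673). Replicate 1 of cKO/AD stood apart: 18693 genes had a count in it, against 22088 in the other cKO/AD library and 24342 to 25988 elsewhere, and mitochondrial genes took 4.73% of its counts, against 1.37% to 2.36% in the other 7 libraries. Markers of microglia were abundant in every group, but 12 of them summed to 22185 ± 5292 CPM in cKO/AD, against 43083 ± 1783 in WT/AD, and to 29425 ± 2745 in cKO, against 44572 ± 2055 in WT (SD, n = 2 each). The log2 fold changes of all 12 were below 0 in cKO relative to WT, though none passed. The 14 listed markers of oligodendrocytes, the myelin-forming cells, summed to 9925 ± 1555 CPM in cKO/AD, against 6030.1 ± 442 in WT/AD, and to 6923 ± 285 in cKO, against 5251 ± 418 in WT. In cKO/AD relative to WT/AD 3 of them rose and 7 fell (21.4% and 50%, beside 7.82% and 10.2% of all tested genes), and none was at 0 in a whole group. The 10 markers of mural cells and fibroblasts summed to 362 ± 39.5 CPM in cKO, against 1181 ± 7.51 in WT, and the 10 of astrocytes to 795 ± 5.29, against 1348 ± 68.9. Oligodendrocytes make cholesterol for myelin and express the same enzymes, and in bulk RNA fewer cells of a type and less RNA per cell cannot be told apart. The part of these differences in the results that follow was not tested.

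To compare genes with each other, CPM was divided by the length in kilobases of all annotated exons of the gene, joined over its transcripts. This length can exceed that of a single messenger RNA, so the order of genes depends in part on the annotation. On this scale per length, Scd2, a stearoyl-CoA desaturase, was the highest of the 30 in WT with a mean of 79.1 CPM per kb, followed by Acly, which makes cytosolic acetyl-CoA from citrate, with 47.3, the kinase Pmvk with 42.5 and the transcription factor gene Srebf2 with 31.5. In cKO/AD the order of the 4 highest was different: Pmvk had a mean of 101 CPM per kb, Scd2 61.1, the thiolase Acat2 34.8 and Acly 31.7. Srebf2 was at 11.9 CPM per kb in cKO/AD. The lowest levels per length in WT belonged to Fdps, the farnesyl diphosphate synthase, with 0.822 CPM per kb, and to Lss and Acaca with 1.29 and 1.30. Genes near the bottom of the plot of all levels carry a larger counting error: Fdps rested on 86 and 53 reads in cKO/AD, against 139 and 120 in WT/AD, and Srebf1 on 7 and 400 in cKO/AD. Some of the 30 share exon bases with another gene of the GENCODE M21 annotation, so their levels are less certain: 26.7% of the exon bases of Fdps on the same strand, and 18.3% of Fdft1, 13.2% of Scap and 12.1% of Hmgcs1 on the opposite strand.

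**Figure D1:**
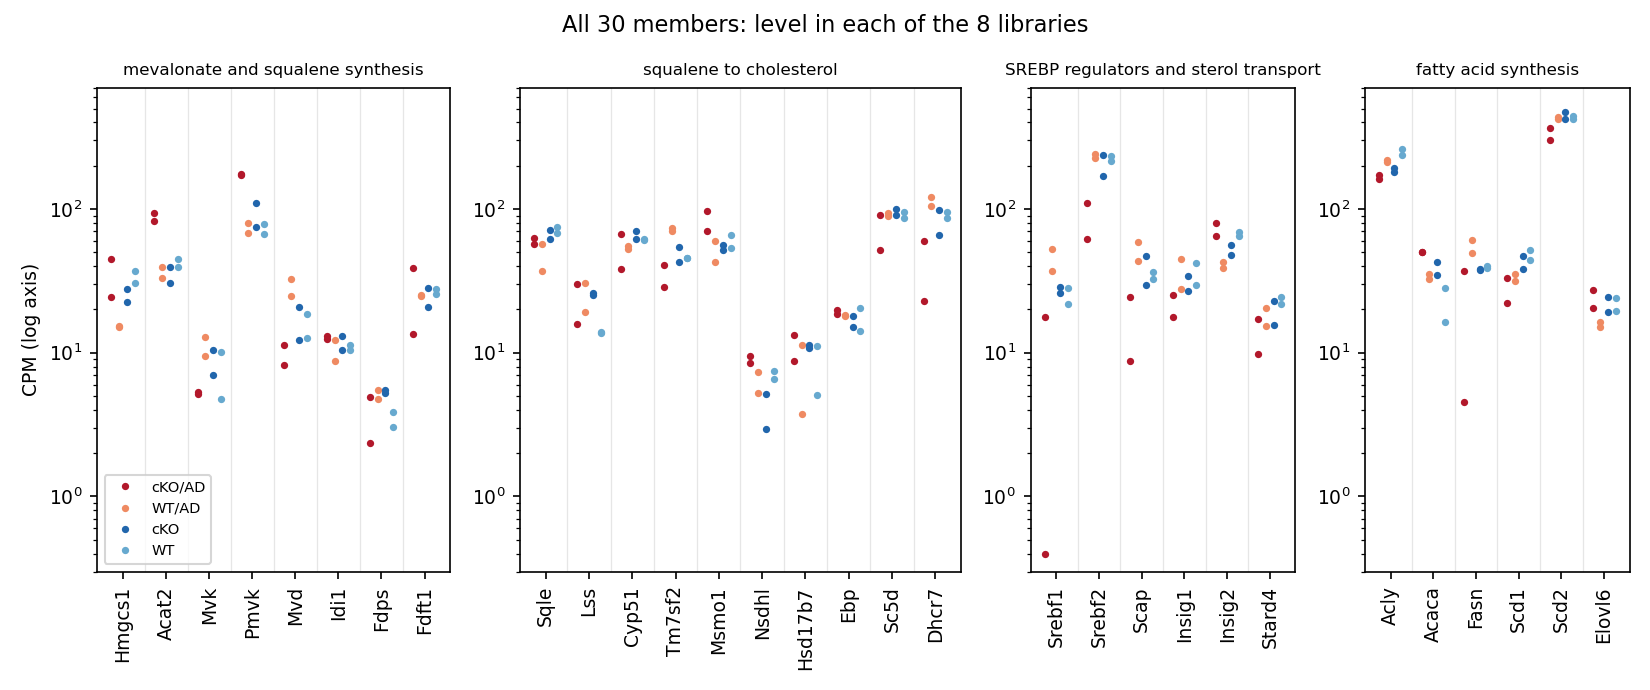
Level of each of the 30 genes in each of the 8 libraries, in CPM on a log axis, with genes in 4 panels by role and 1 point per library coloured by group. Acat2 and Pmvk stand highest in both cKO/AD libraries, Srebf2 stands lowest in both, and the cKO/AD points of Srebf1 and Fasn lie far apart.

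Setting cKO/AD against WT/AD asks what loss of Calhm2 goes with in microglia of diseased animals, and it was the only comparison in which any of the 30 genes passed the threshold, an adjusted p of 0.05 after the Benjamini-Hochberg adjustment over all 22089 genes. Acat2, Pmvk, Hmgcs1 and Insig2 rose, and Srebf2, Tm7sf2, Mvd and Dhcr7 fell. The 4 rises were 13.3% of the 30 genes, while 7.82% of all tested genes were called higher. The 4 falls were also 13.3%, while 10.2% of all tested genes were called lower. The shares of the 30 genes were thus near those of the whole table. The median log2 fold change of the 30 was -0.19, beside -0.14 over all tested genes, and 13 of the 30 were above 0. By role, 3 enzymes rose and 1 fell among the 8 genes up to squalene, 2 fell among the 10 from squalene to cholesterol, and 1 rose and 1 fell among the 6 regulators and carriers. None of the 6 genes of fatty acid synthesis was called.

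The early mevalonate enzymes held the clearest rises. Acat2, the cytosolic thiolase that joins acetyl-CoA into acetoacetyl-CoA, had 82.9 and 94.1 CPM for cKO/AD, 32.8 and 39.6 CPM for WT/AD, 39.5 and 30.5 CPM for cKO, and 44.99 and 39.5 CPM for WT. Both cKO/AD libraries lay above every library of the other 3 groups. Acat2 rose in cKO/AD relative to WT/AD (log2 fold change 1.29, SE 0.238, adjusted p = 0.012). The neighbouring near-copy gene Acat3, which could share reads with it, had 3 and 41 counts in the cKO/AD libraries, against 37 and 25 in WT/AD. Acat2 itself had 1460 and 2110 counts in cKO/AD, against 826 and 1000 in WT/AD. Pmvk, the kinase that adds the second phosphate to mevalonate, had 172 and 174 CPM for cKO/AD, 67.8 and 80.1 CPM for WT/AD, 110.1 and 75.4 CPM for cKO, and 66.99 and 78.8 CPM for WT. Its 2 cKO/AD libraries were nearly equal and lay above all 6 others. Pmvk rose relative to WT/AD (log2 fold change 1.22, SE 0.234, adjusted p = 0.0135).

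Hmgcs1, the synthase that makes HMG-CoA from the product of Acat2, had 44.8 and 24.5 CPM for cKO/AD, 15.2 and 15.3 CPM for WT/AD, 22.3 and 27.6 CPM for cKO, and 30.5 and 36.9 CPM for WT. The cKO/AD libraries differed from each other, both lay above both WT/AD libraries, and they overlapped with the cKO and WT libraries, since WT/AD was the lowest group. Hmgcs1 rose relative to WT/AD with an adjusted p just under the threshold (log2 fold change 1.19, SE 0.344, adjusted p = 0.0498). Without cKO/AD replicate 1, which leaves 1 library in that group, the log2 fold change of Hmgcs1 was 0.72. Mvd, the decarboxylase that yields isopentenyl diphosphate, moved the other way and had 8.18 and 11.2 CPM for cKO/AD, 32.5 and 24.7 CPM for WT/AD, 12.2 and 20.9 CPM for cKO, and 12.7 and 18.6 CPM for WT. Both cKO/AD libraries were below all others, and the WT/AD libraries were the highest. Mvd fell relative to WT/AD (log2 fold change -1.56, SE 0.412, adjusted p = 0.0366).

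The other 4 genes up to squalene did not pass: mevalonate kinase (Mvk) had a log2 fold change of -1.08, the isomerase Idi1 0.28, Fdps -0.50 and squalene synthase (Fdft1) 0.08. Summed over these 8 genes, the level was 353 ± 13.2 CPM in cKO/AD, 206 ± 2.81 in WT/AD, 219.8 ± 16.1 in cKO and 213 ± 16.8 in WT (SD, n = 2 each). Pmvk and Acat2 make up most of the higher sum in cKO/AD.

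Of the enzymes that turn squalene into cholesterol, 2 reductases were called. Tm7sf2, a sterol reductase that acts after the demethylase Cyp51, had 28.6 and 41.04 CPM for cKO/AD, 74.1 and 69.96 CPM for WT/AD, 42.4 and 54.8 CPM for cKO, and 45.3 and 45.4 CPM for WT. Both cKO/AD libraries were below all others and both WT/AD libraries were above all others. Tm7sf2 fell relative to WT/AD (log2 fold change -1.05, SE 0.254, adjusted p = 0.0282). In the GENCODE M21 annotation 12.1% of its exon bases are also exon of Vps51 on the same strand, a gene with a log2 fold change of -2.31 (adjusted p = 0.0126), so that part of its reads cannot be told apart. Dhcr7, a reductase of the last step of the route, had 22.7 and 59.6 CPM for cKO/AD, 105 and 122 CPM for WT/AD, 65.8 and 98.8 CPM for cKO, and 86.8 and 94.9 CPM for WT. The cKO/AD libraries differed by more than those of any other group but were both below the rest. Dhcr7 fell relative to WT/AD (log2 fold change -1.46, SE 0.423, adjusted p = 0.0492).

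Cyp51 and the other 7 enzymes of the route were not called. Their log2 fold changes lay between -0.35 for the desaturase Sc5d and 0.70 for the methylsterol oxidase Msmo1, with squalene epoxidase (Sqle) at 0.36, Nsdhl and Hsd17b7, partners in the removal of methyl groups, at 0.52 and 0.55, the isomerase Ebp at 0.09, Cyp51 at -0.03 and lanosterol synthase (Lss) at -0.10. The sum over the 10 genes was 406 ± 76.2 CPM in cKO/AD, against 486 ± 0.693 in WT/AD (SD, n = 2 each). The only calls in this stretch of the chain were the 2 falls, and none of the values above 0 passed.

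Among the regulators, Srebf2, which encodes the SREBP that mainly drives sterol genes, had 61.5 and 109 CPM for cKO/AD, 241 and 226 CPM for WT/AD, 170.1 and 236 CPM for cKO, and 235 and 217 CPM for WT. Both cKO/AD libraries were below all 6 others. Srebf2 fell relative to WT/AD (log2 fold change -1.45, SE 0.293, adjusted p = 0.0158). Insig2, which holds the Scap complex in the endoplasmic reticulum, had 64.4 and 80.3 CPM for cKO/AD, 39.1 and 42.9 CPM for WT/AD, 55.9 and 48.1 CPM for cKO, and 69.4 and 64.6 CPM for WT. The 2 WT/AD libraries were the lowest of the 8, and the cKO/AD libraries overlapped with WT. Insig2 rose relative to WT/AD (log2 fold change 0.82, SE 0.215, adjusted p = 0.0361).

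Scap, the escort of the SREBPs, and Srebf1, which encodes the SREBP that mainly drives fatty acid genes, had the most negative fold changes that did not pass, and they were chosen after their values were seen. Scap had 8.69 and 24.4 CPM in cKO/AD, against 58.5 and 43.8 CPM in WT/AD (log2 fold change -1.63, SE 0.482, adjusted p = 0.0527). Srebf1 had 0.397 and 17.8 CPM in cKO/AD, against 52.97 and 37.1 CPM in WT/AD, and its 2 cKO/AD libraries differed far more from each other than those of any other group (log2 fold change -2.30, SE 1.13, adjusted p = 0.196). Without cKO/AD replicate 1, which leaves 1 library in that group, the log2 fold changes were -1.04 for Scap and -1.31 for Srebf1. Insig1, the paralogue of Insig2, did not pass (log2 fold change -0.76, SE 0.353, adjusted p = 0.174), nor did the sterol carrier Stard4 (log2 fold change -0.41, SE 0.388, adjusted p = 0.493). The sum over the 6 genes was 218 ± 57.9 CPM in cKO/AD, against 425 ± 20.6 in WT/AD (SD, n = 2 each), and Srebf2 had the highest mean of the 6 in both groups.

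The 6 genes of fatty acid synthesis, a route that starts from the acetyl-CoA that Acly makes, gave no call. Acly had 162 and 173 CPM in cKO/AD, against 220.4 and 211 CPM in WT/AD, and the difference did not pass (log2 fold change -0.37, SE 0.166, adjusted p = 0.164). Scd2 had 368 and 299.5 CPM in cKO/AD, against 435 and 422 CPM in WT/AD (log2 fold change -0.36, SE 0.181, adjusted p = 0.201), and Scd1, the second desaturase, had a log2 fold change of -0.27. Acaca, which makes malonyl-CoA, was at 0.57 and the elongase Elovl6 at 0.61. Fasn, the fatty acid synthase, had 4.54 and 36.8 CPM in cKO/AD, against 60.8 and 49.1 CPM in WT/AD; replicate 1 of cKO/AD was far below all other libraries, and the difference did not pass (log2 fold change -1.40, SE 0.740, adjusted p = 0.222). Summed over the 6 genes, the level was 624 ± 4.95 CPM in cKO/AD, against 782 ± 26.3 in WT/AD (SD, n = 2 each).

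**Figure D2:**
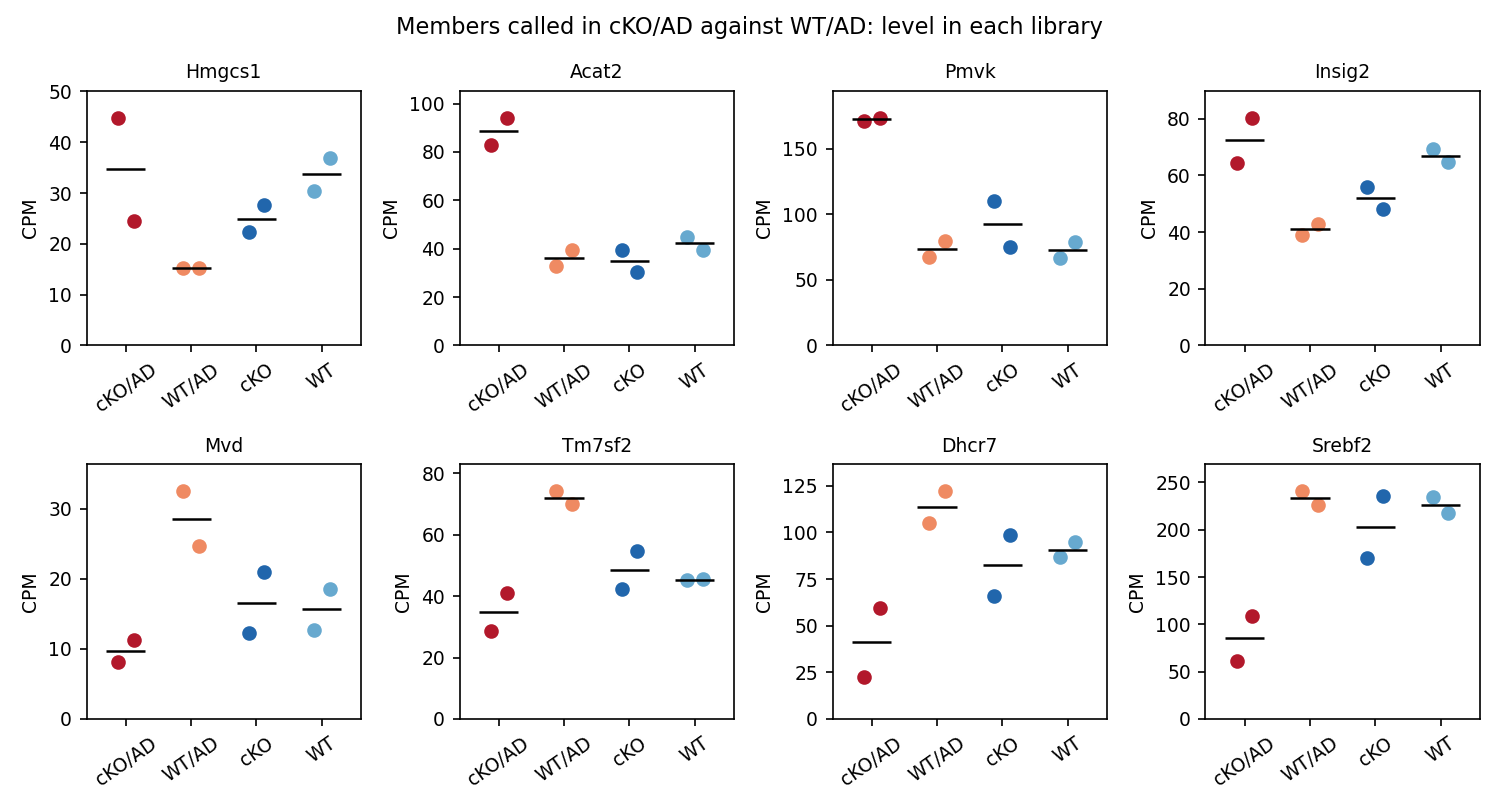
CPM of the 8 called genes in each library, with 2 points per group and a line at the group mean, and with the 4 that rose in the upper row and the 4 that fell in the lower row. The 2 cKO/AD libraries of Acat2 and Pmvk lie above and those of Mvd, Tm7sf2, Dhcr7 and Srebf2 below every other library, while in Hmgcs1 and Insig2 the WT/AD libraries are the lowest.

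The calls differed in how they held up. Other ways of running the test that keep every library of the groups compared numbered 10. Acat2 and Pmvk passed in 9 each, Srebf2, Tm7sf2, Dhcr7 and Mvd in 7 each, Insig2 in 5 and Hmgcs1 in 4. No gene of the 30 passed when the 4 libraries of the 2 groups were fitted alone. Of all 19740 genes tested in that fit 0 passed, so it does not tell the 30 from the rest. Leaving out a WT/AD or cKO/AD library leaves 1 in its group, so which genes passed then is no check of the calls. Without WT/AD replicate 1 the median log2 fold change of the 30 was -0.11, and without WT/AD replicate 2 it was -0.35. Over all genes tested in these fits it was 0. Without cKO/AD replicate 1, which stands apart, the median log2 fold change of the 30 was 0.05, beside -0.07 over all genes tested then. Without cKO/AD replicate 2 it was -0.33, beside -0.56 over all genes tested then. Fewer of the 30 genes passed when a WT or cKO library was left out, with Acat2, Pmvk and Srebf2 passing each time.

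The 8 called genes differed in base composition, and so did the libraries. The share of G and C bases in the transcripts of the 30 genes had a median of 50.5%, from 40.6% in Idi1 to 59.8% in Srebf1, beside 49.4% over all tested genes. Of the genes that rose, Hmgcs1 was at 45.6%, Insig2 at 47.6%, Acat2 at 50.6% and Pmvk at 55.7%. Of those that fell, Dhcr7 was at 52.3%, Tm7sf2 at 56.2%, Srebf2 at 57.8% and Mvd at 59.2%. Over the 30 genes, which share the same libraries, GC content and the log2 fold change of cKO/AD over WT/AD had a Pearson correlation of -0.65 and a Spearman correlation of -0.60, as a description. GC content also went with the difference between the 2 cKO/AD libraries: the log2 ratio of replicate 1 over replicate 2 correlated with it at -0.56 (Pearson, n = 30 genes), with a median ratio of -0.56 in the 15 genes of higher GC content and 0.08 in the other 15. Over tested genes with a mean log2 CPM above 2, the deviation of a library from the mean was also correlated with GC content. The correlation was -0.46 in both cKO/AD libraries and 0.66 and 0.58 in the WT/AD libraries. It was -0.24 and 0.14 in the cKO libraries and 0.26 and 0.32 in the WT libraries.

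**Figure D3:**
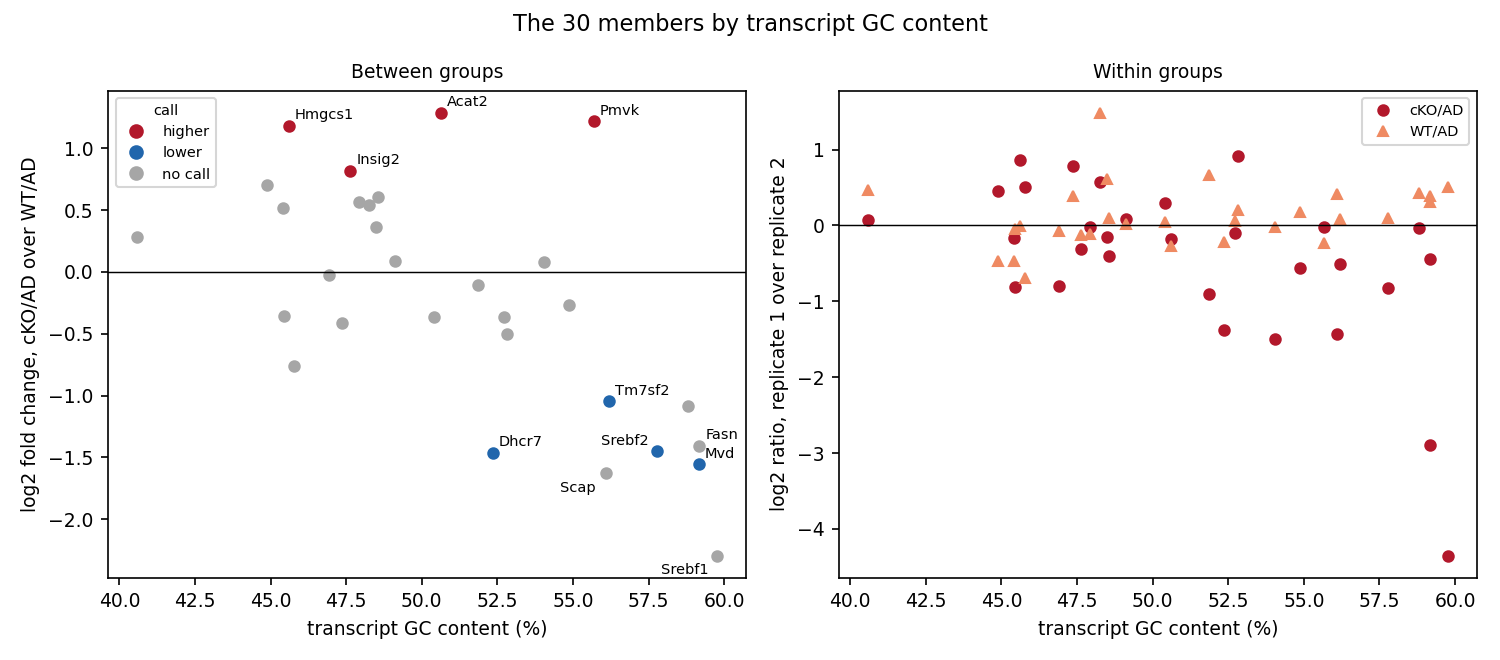
Left, transcript GC content in percent against the log2 fold change of cKO/AD over WT/AD for the 30 genes, coloured by call. Right, GC content against the log2 ratio of replicate 1 over replicate 2 within cKO/AD (circles) and within WT/AD (triangles); the genes of high GC content lie low in the left panel, with Pmvk as the exception among those called, and the circles of Srebf1 and Fasn lie lowest in the right panel.

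When each library's trend with GC content was fitted over genes with a mean log2 CPM above 2 and removed, 2 of the 8 calls passed. Pmvk then had a log2 fold change of 2.42 (adjusted p = 0.0194) and Acat2 1.43 (adjusted p = 0.0223). Dhcr7 kept its sign without passing, at -1.12 (adjusted p = 0.0901), and so did Hmgcs1 at 0.70 (adjusted p = 0.238) and Insig2 at 0.56 (adjusted p = 0.137). The other 3 turned sign: Srebf2 was at 0.12 (adjusted p = 0.706), Tm7sf2 at 0.21 (adjusted p = 0.572) and Mvd at 0.34 (adjusted p = 0.596). No gene of the 30 was called lower with this correction, and their median log2 fold change was then 0.17. The Pearson correlation with GC content over the 30 became 0.26. The same correction moved it from 0.58 to 0.08 in WT/AD against WT and from -0.57 to 0.05 in cKO/AD against cKO. In the interaction it went from -0.66 to -0.01, but in cKO against WT it rose from 0.21 to 0.49. The falls of Srebf2, Tm7sf2 and Mvd were thus seen in the counts as deposited and not in the corrected values.

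**Figure D4:**
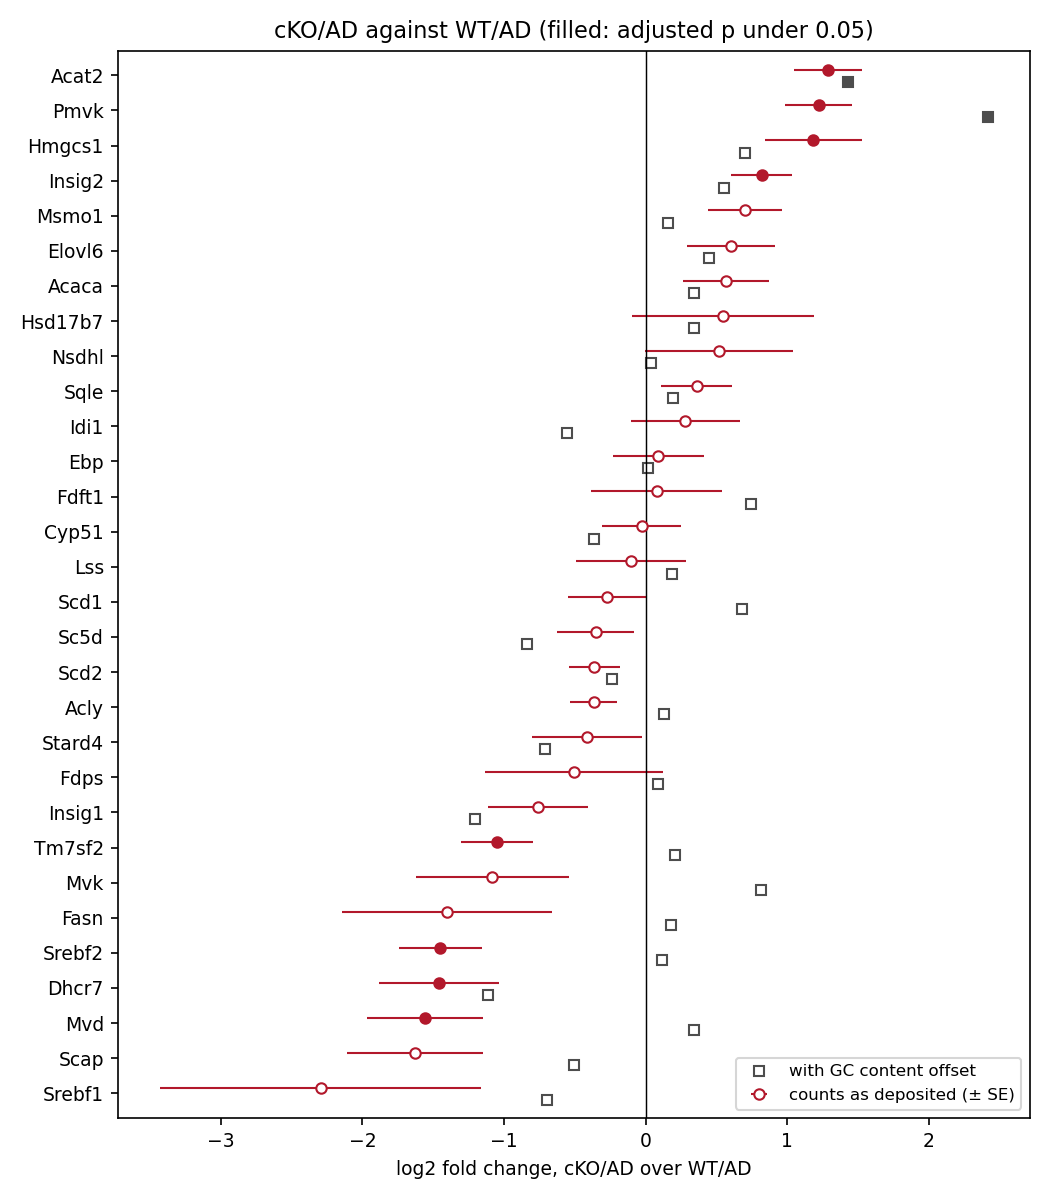
Log2 fold change of cKO/AD over WT/AD for the 30 genes, from the deposited counts (circles, with standard errors) and with the GC trend of each library removed (squares), filled where the adjusted p is under 0.05. Acat2 and Pmvk are filled in both, and the squares of Mvd, Srebf2 and Tm7sf2 lie right of 0.

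Promoter sequences were taken to show what the called genes carry upstream, since SREBPs bind sterol regulatory elements, often beside CCAAT boxes, which bind NF-Y. RefSeq (build GRCm38.p6) gave 32 promoters for 24 of the 30 genes, each from 250 bases before to 50 after a transcription start. Of the 8 called genes 6 are shown, 5′ to 3′ on the gene's strand: Hmgcs1 (chr13:119690101-119690400, plus strand), Acat2 (chr17:12960676-12960975, minus strand), the first start of Pmvk (chr3:89454291-89454590, plus strand), Srebf2 (chr15:82147019-82147318, plus strand), Mvd (chr8:122443373-122443672, minus strand) and Tm7sf2 (chr19:6067801-6068100, minus strand). Capitals mark matches to the sterol element TCACNCCAC or to CCAAT, on either strand (ATTGG is CCAAT on the other strand), and the marked matches in these 6 sequences do not overlap each other.
Hmgcs1: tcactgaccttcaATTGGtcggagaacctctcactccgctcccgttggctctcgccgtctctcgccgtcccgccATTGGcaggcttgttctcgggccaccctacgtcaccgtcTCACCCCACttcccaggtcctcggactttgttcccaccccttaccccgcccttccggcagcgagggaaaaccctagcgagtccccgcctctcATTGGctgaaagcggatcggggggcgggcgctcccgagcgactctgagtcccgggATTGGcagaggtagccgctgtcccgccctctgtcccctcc
Acat2: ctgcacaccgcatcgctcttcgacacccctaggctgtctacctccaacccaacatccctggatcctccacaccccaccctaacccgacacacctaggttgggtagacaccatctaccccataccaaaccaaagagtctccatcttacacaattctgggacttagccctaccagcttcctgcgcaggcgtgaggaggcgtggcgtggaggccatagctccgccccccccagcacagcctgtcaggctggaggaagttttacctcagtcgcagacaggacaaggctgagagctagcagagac
Pmvk: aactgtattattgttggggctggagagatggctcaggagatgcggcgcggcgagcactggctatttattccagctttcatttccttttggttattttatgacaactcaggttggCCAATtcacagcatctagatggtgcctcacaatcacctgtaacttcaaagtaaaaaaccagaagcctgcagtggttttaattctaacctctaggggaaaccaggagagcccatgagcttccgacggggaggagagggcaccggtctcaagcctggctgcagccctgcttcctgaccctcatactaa
Srebf2: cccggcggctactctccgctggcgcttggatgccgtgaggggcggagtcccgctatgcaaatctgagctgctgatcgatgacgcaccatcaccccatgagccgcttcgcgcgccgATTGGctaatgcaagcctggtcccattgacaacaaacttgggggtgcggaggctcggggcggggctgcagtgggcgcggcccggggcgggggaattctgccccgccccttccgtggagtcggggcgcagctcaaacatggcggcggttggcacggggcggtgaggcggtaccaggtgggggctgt
Mvd: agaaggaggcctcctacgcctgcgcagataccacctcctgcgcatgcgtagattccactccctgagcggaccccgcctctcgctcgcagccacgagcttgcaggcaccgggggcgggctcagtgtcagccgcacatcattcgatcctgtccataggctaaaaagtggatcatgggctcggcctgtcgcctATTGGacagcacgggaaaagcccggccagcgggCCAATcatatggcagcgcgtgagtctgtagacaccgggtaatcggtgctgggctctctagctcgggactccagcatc
Tm7sf2: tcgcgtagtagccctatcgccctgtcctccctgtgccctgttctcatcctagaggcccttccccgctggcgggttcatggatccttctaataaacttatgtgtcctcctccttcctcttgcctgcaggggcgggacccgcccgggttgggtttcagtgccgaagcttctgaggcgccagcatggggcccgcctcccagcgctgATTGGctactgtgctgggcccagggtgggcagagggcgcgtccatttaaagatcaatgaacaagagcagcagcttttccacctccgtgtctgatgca

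The sterol element was found in 1 of the 32 promoters, that of Hmgcs1, where it begins 137 bases before the start. It was in 1.24% of all 32851 promoters of the table and in 3.125% of those of the 30 genes. The CCAAT box was in 65.6% of the promoters of the 30 genes and in 37.4% of all promoters. Hmgcs1 held 4 such boxes, Mvd 2 and Pmvk, Srebf2 and Tm7sf2 1 each, while Acat2 held none. The GC box GGGCGG was in 75% of the promoters of the 30 genes and in 35.7% of all, and the E-box CACGTG, which reads the same on both strands, in 18.75% and 7.15%. Both strands were searched for each motif, and the only overlapping matches were a pair of CCAAT boxes in Fasn. Matches of letters are a description, an absent match says only that the letters are not in this window, and CCAAT boxes were held both by genes that rose and by genes that fell.

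Genes next to the 30 in the pathway were called in both directions in the same comparison. Of 35 tested genes of other steps of sterol and fatty acid synthesis, 3 rose and 3 fell, which is 8.57% in each direction and near the 7.82% higher and 10.2% lower of all tested genes. Their median log2 fold change was -0.17, and 0.18 with the GC trend removed. Those that rose were the acyl-CoA synthetases Acsl4 (log2 fold change 1.78, SE 0.277, adjusted p = 0.00832) and Acsl3 (0.96) and the lamin B receptor Lbr (1.26), which is also a sterol reductase of the same step as Tm7sf2. Slc25a1, the citrate carrier that feeds Acly (log2 fold change -2.51, SE 0.345, adjusted p = 0.00689), fell, as did Mcat (-1.34), the mitochondrial malonyltransferase, and Mid1ip1 (-1.16), an activator of acetyl-CoA carboxylase. With the GC trend removed, Slc25a1 was at -0.44 (adjusted p = 0.263), Mid1ip1 at 0.07 (adjusted p = 0.895) and Mcat at 1.02 (adjusted p = 0.14). Of those that rose, Acsl4 passed at 0.91 (adjusted p = 0.048), while Lbr was at 1.16 (adjusted p = 0.06) and Acsl3 at 0.23 (adjusted p = 0.612).

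Of 9 genes that process SREBPs or degrade proteins of the route when sterols are high, 1 rose and 2 fell (11.1% and 22.2%, beside 7.82% and 10.2% of all tested genes), with a median log2 fold change of -0.59, and -0.03 with the GC trend removed. In a list of 9 genes a single call makes up 11.1%, so these shares are coarse. Mbtps1, the protease that makes the first cut in SREBPs, fell (log2 fold change -1.74, SE 0.264, adjusted p = 0.00774), and it also fell with the GC trend removed, at -1.59 (adjusted p = 0.0213). The ubiquitin ligase Rnf145 fell by both measures, at -1.59 and -1.27 (adjusted p = 0.0444). Fbxw7, a ubiquitin ligase subunit that targets nuclear SREBPs, rose (log2 fold change 1.67, SE 0.351, adjusted p = 0.0174). Of 12 genes of sterol sensing, storage and export, 3 rose and 1 fell (25% and 8.33%, beside the same shares of all tested genes), with a median log2 fold change of -0.18, and 0.02 with the GC trend removed. Abcg1, a sterol exporter, rose (log2 fold change 1.97, SE 0.396, adjusted p = 0.0154), also with the GC trend removed, at 3.10 (adjusted p = 0.0289). Soat1, which esterifies cholesterol for storage, rose by 1.02 and the ubiquitin ligase Mylip by 1.23 on the log2 scale. Cyp27a1, a sterol hydroxylase, fell (log2 fold change -0.87, SE 0.239, adjusted p = 0.0416). With the GC trend removed, Fbxw7 was at 0.98 (adjusted p = 0.0905), Soat1 at 0.74 (adjusted p = 0.132), Mylip at 1.34 (adjusted p = 0.0744) and Cyp27a1 at -0.31 (adjusted p = 0.505). In none of the other 4 comparisons was a gene of these 3 lists called.

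Setting cKO/AD against cKO asks what the disease goes with in knockout microglia, and it shares the cKO/AD libraries with the comparison above. None of the 30 genes passed, while 0.0634% of all tested genes were called higher and 0.154% lower. At an unadjusted p under 0.05 there were 6, beside 5168 of all 22089 tested genes. DESeq2's Wald test called 2 higher and 1 lower, beside 1406 and 1873 of all, and limma-voom 1 higher, beside 73. With no filter on low counts, edgeR called 2 higher and 4 lower, beside 1123 and 1934 of 34788 genes. Acat2 had 82.9 and 94.1 CPM in cKO/AD, against 39.5 and 30.5 CPM in cKO (log2 fold change 1.34, SE 0.239, adjusted p = 0.0556). Srebf2 had 61.5 and 109 CPM in cKO/AD, against 170.1 and 236 CPM in cKO (log2 fold change -1.25, SE 0.292, adjusted p = 0.0705). Pmvk had 172 and 174 CPM in cKO/AD, against 110.1 and 75.4 CPM in cKO (log2 fold change 0.90, SE 0.233, adjusted p = 0.0807). Leaving out either cKO/AD library leaves 1 in that group, so passing in those fits is no check of a difference. Without replicate 1 the log2 fold change was 1.42 for Acat2, -0.89 for Srebf2 and 0.90 for Pmvk. Without replicate 2 it was 1.23 for Acat2, -1.73 for Srebf2 and 0.88 for Pmvk. None of the 30 passed when a library of WT/AD or WT was left out. Of all tested genes, 2 were called higher without either WT/AD library and 0 without either WT library. Leaving out a cKO library also leaves 1 in that group, so it is no check of a difference. None passed with the GC trend removed either: the log2 fold change of Srebf2 was then -0.30 (adjusted p = 0.328), that of Acat2 1.45 (adjusted p = 0.0621) and that of Pmvk 1.62 (adjusted p = 0.069). The median over the 30 genes was -0.24, beside -0.13 over all tested genes.

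The comparison of WT/AD with WT asks what the disease goes with in microglia that keep Calhm2. None of the 30 genes passed, while 0.0317% of all tested genes were called higher and 0.0136% lower. At an unadjusted p under 0.05 there were 4, beside 1986 of all 22089 tested genes, and DESeq2 and limma-voom called none of the 30. Hmgcs1 had 15.2 and 15.3 CPM in WT/AD, against 30.5 and 36.9 CPM in WT (log2 fold change -1.14, SE 0.344, adjusted p = 0.387). Insig2 had 39.1 and 42.9 CPM in WT/AD, against 69.4 and 64.6 CPM in WT (log2 fold change -0.71, SE 0.215, adjusted p = 0.388). Tm7sf2 had 74.1 and 69.96 CPM in WT/AD, against 45.3 and 45.4 CPM in WT, with WT/AD the higher group (log2 fold change 0.67, SE 0.253, adjusted p = 0.501). These 3 passed in a fit of the 4 libraries of WT/AD and WT alone (adjusted p = 0.0238 for Hmgcs1, 0.0456 for Insig2 and 0.0467 for Tm7sf2). That fit called 738 genes higher and 632 lower of all 20460 tested in it. The 3 were named for the smallest p of the 30 on the same libraries, so their passing adds no separate support. Leaving out cKO/AD replicate 1 or 2 keeps both libraries of WT/AD and of WT. It changes mainly the spread that all groups share, so Hmgcs1 passing then is no separate check. With the GC trend removed, the log2 fold changes were -0.91 (adjusted p = 0.662) for Hmgcs1, -0.52 (adjusted p = 0.679) for Insig2 and 0.37 (adjusted p = 0.83) for Tm7sf2. The median over the 30 was 0.00, as over all tested genes.

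The comparison of cKO with WT asks what loss of Calhm2 goes with in the absence of the disease. None of the 30 genes passed, and 0% of all tested genes were called higher and 0% lower. At an unadjusted p under 0.05 there were 2, beside 1596 of all 22089 tested genes, and DESeq2 and limma-voom called none of the 30. Acaca had 42.6 and 34.8 CPM in cKO, against 28.2 and 16.3 CPM in WT (log2 fold change 0.80, SE 0.304, adjusted p = 0.678). Acly had 180.3 and 194 CPM in cKO, against 238 and 261 CPM in WT (log2 fold change -0.42, SE 0.167, adjusted p = 0.687). Lss, the cyclase that makes lanosterol, had 26.01 and 25.2 CPM in cKO, against 13.8 and 13.9 CPM in WT (log2 fold change 0.88, SE 0.392, adjusted p = 0.691). These 3 were picked for the smallest p of the 30, so the absence of overlap between their cKO and WT libraries adds no support. The other 27 genes had log2 fold changes between -0.80 for Nsdhl and 0.64 for Fdps, and the median of the 30 was -0.02, as over all tested genes.

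**Figure D5:**
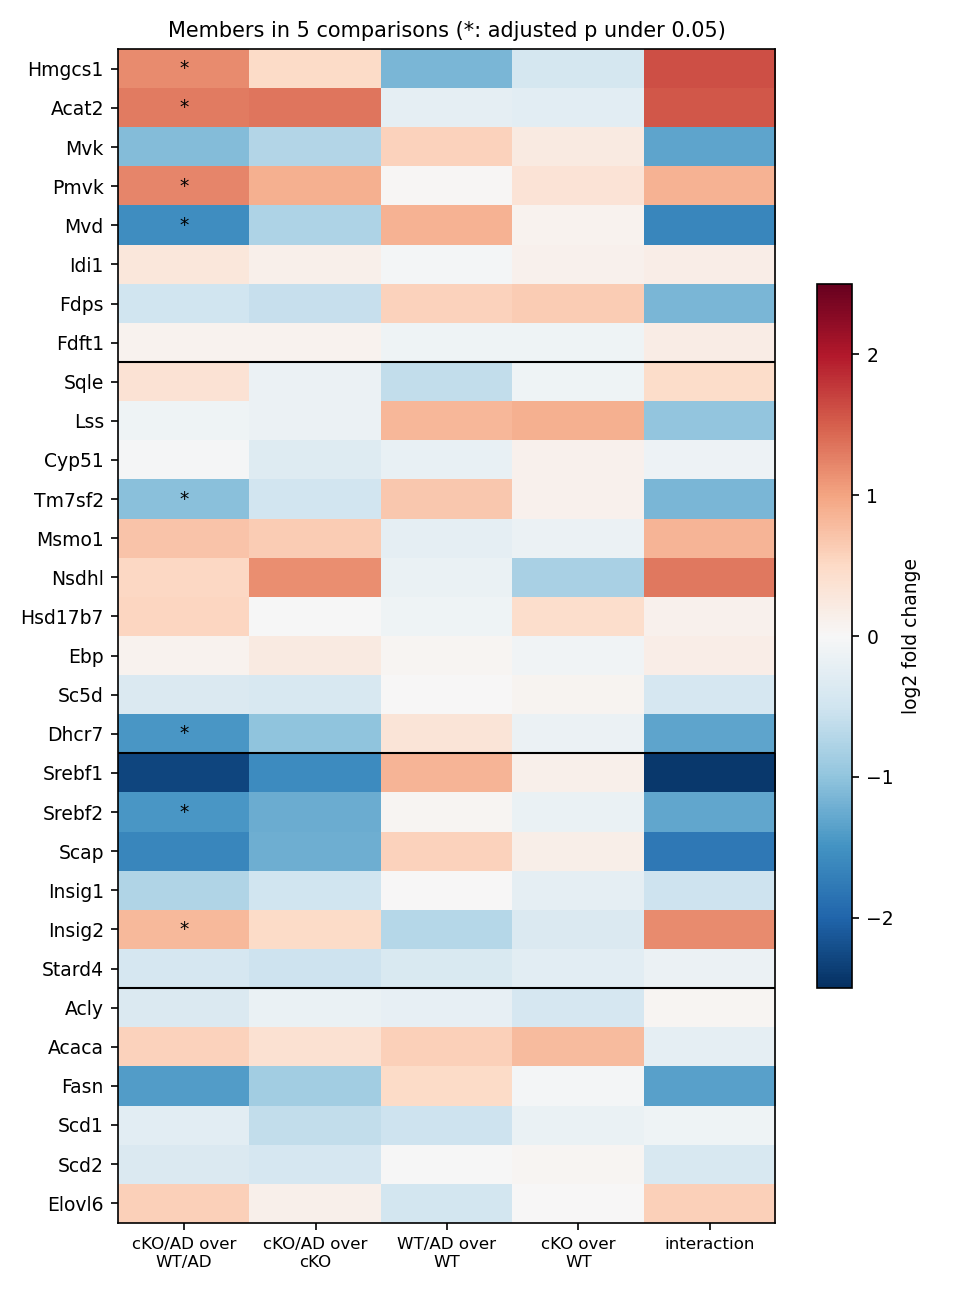
Log2 fold changes of the 30 genes in the 5 comparisons as colours from blue (lower) to red (higher), with lines between the 4 roles and a star where the adjusted p is under 0.05. The 8 stars are all in cKO/AD over WT/AD, and the column of cKO over WT is the palest.

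Whether the difference between knockout and wild type depended on the disease was tested as an interaction: the log2 fold change of cKO/AD over WT/AD less that of cKO over WT, also on the log2 scale. None of the 30 genes passed, while 0.00905% of all tested genes were called higher and 0.0181% lower. At an unadjusted p under 0.05 there were 9, beside 4846 of all 22089 tested genes. DESeq2 called 3 higher and 2 lower, beside 1214 and 1533 of all tested genes. With limma-voom 1 was called higher, beside 263 of all. Acat2 had the smallest p, with a difference of 1.56, SE 0.334, adjusted p = 0.0662: its log2 fold change was 1.29 in cKO/AD over WT/AD and -0.27 in cKO over WT. Insig2 followed with a difference of 1.19, SE 0.304, adjusted p = 0.0869, from 0.82 with the disease and -0.37 without it. Hmgcs1 came next with a difference of 1.62, SE 0.483, adjusted p = 0.117, from 1.19 and -0.43. Leaving out a cKO/AD library leaves 1 in that group, so passing in those fits is no check of an interaction. Without cKO/AD replicate 1 the difference was 1.64 for Acat2 and 1.33 for Insig2. Without replicate 2 it was 1.45 for Acat2, 1.00 for Insig2 and 1.98 for Hmgcs1. Over all 17 alternatives the difference of Hmgcs1 ran from 1.11 to 1.98, so 1.98 was the highest. On all 8 libraries but with no filter on low counts, edgeR called Acat2 and Hmgcs1 higher and Dhcr7, Scap, Srebf1 and Srebf2 lower. In that fit 1070 of all 34788 genes were called higher and 1600 lower. With the GC trend removed none of the 30 passed, and the difference was 1.62 (adjusted p = 0.107) for Acat2, 0.95 (adjusted p = 0.173) for Insig2 and 1.19 (adjusted p = 0.264) for Hmgcs1. The interaction calls among the 30 thus depended on the filter and the tool used.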

How the data were processed

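The authors deposited raw read counts (whole numbers) of 55421 genes in 8 libraries. Per the labels' protocols, Trizol RNA went into Illumina TruSeq libraries. The submitters' processing notes name the build mm9. The sources used here do not give the aligner, counting tool or strand setting, so reads of overlapping genes cannot be told apart. No column was without a sample (0 unused), and the column of the second cKO/AD library was matched to its title.

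Counts were tested with edgeR 4.0.16 in R 4.3.3: filterByExpr by group (22089 genes), TMM factors (0.873 to 1.11), a group means model on all 8 libraries with 4 residual degrees of freedom, the quasi-likelihood test (two-sided) and the Benjamini-Hochberg adjustment over all tested genes of a comparison. Every adjusted p is from this test unless another tool is named. The standard error is the size of the log2 fold change over the root of F. Transcript GC content and exon length come from GENCODE M21, of a later build than mm9. The GC correction is an offset per library: its departure from the mean log2 CPM was smoothed on GC content by loess (span 0.4) using genes whose mean log2 CPM exceeded 2. A GC value existed for 99.87% of tested genes. Replicate ratios used a pseudocount of 0.5 CPM. Totals of 18218165 to 25774587 counts per library limit the precision of low genes.

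Alternatives included the Wald test of DESeq2 1.42.0, edgeR with DESeq2 size factors, voom in limma 3.58.1, library size without TMM, no filter, at least 10 counts in 4 libraries, only the 2 groups compared, a replicate block, the GC correction with and without that block, and leaving out each library. The scripts were tested on simulated data. The genes, lists and alternatives were chosen with earlier results of these data known. All 30 genes are named; those past the threshold are given in every library, as are the 3 with the smallest p of a comparison without calls, and up to 4 called genes per other list.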

Additional observations from a re-analysis of the deposited data

How the results depend on the processing

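Counts of called genes of the 30, higher and lower, are given in that order. For cKO/AD against WT/AD (4 and 4), library size without TMM gave 2 higher, the replicate block 2, the GC correction 2 and 0, that correction with the replicate block 2 and 1, no filter 7 lower, and the 2 groups alone 0 and 0. For WT/AD against WT (0 and 0), the 2 groups alone gave 1 and 2. For cKO/AD against cKO (0 and 0), DESeq2 gave 2 and 1, limma-voom 1 higher and no filter 2 and 4. For the interaction (0 and 0), DESeq2 gave 3 and 2, limma-voom 1 higher and no filter 2 and 4. With 1 library left out, the counts ranged from 0 to 5 and 0 to 9 for cKO/AD against WT/AD, 0 to 4 and 0 to 10 for cKO/AD against cKO, 0 to 4 and 0 to 9 for the interaction, 0 to 0 and 0 to 1 for WT/AD against WT, and 0 to 0 for cKO against WT; outside cKO/AD against WT/AD, only leaving out a cKO/AD library moved them. Calls against WT/AD that turned sign with the GC correction, without and with the replicate block, were Mvd (0.34 and 0.34), Srebf2 (0.12 and 0.12) and Tm7sf2 (0.21 and 0.21). The cause of these differences was not tested, beyond the smaller number of libraries where some were left out.

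Same-numbered libraries did not deviate together (correlations of -0.03 to 0.06 between groups). With 2 libraries per group this cannot exclude that the numbers pair them. Under the replicate block 2 genes rose and 5 fell in cKO/AD against WT/AD. Over all tested genes, the counts in cKO/AD against WT/AD (1728 and 2252) became 2899 and 3493 by DESeq2, 848 and 505 with the GC correction and 0 and 0 with the 2 groups alone; in WT/AD against WT (7 and 3) they became 738 and 632 with the 2 groups alone and 275 and 256 by DESeq2; in cKO/AD against cKO (14 and 34) 1406 and 1873, in the interaction (2 and 4) 1214 and 1533, and in cKO against WT (0 and 0) 118 and 150, each by DESeq2. With no filter, 2431 and 3196 of 34788 genes were called in cKO/AD against WT/AD. Without TMM, the median of all tested genes was 0.13 in cKO against WT, -0.35 in cKO/AD against cKO and -0.37 in the interaction, beside -0.02, -0.13 and -0.16 with it.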

Other observations

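The 2 libraries of a group differed in the 30 genes to an extent that varied by group. The median size of the log2 ratio of replicate 1 over replicate 2 over the 30 genes was 0.507 in cKO/AD, 0.228 in WT/AD, 0.306 in cKO and 0.179 in WT. In cKO/AD the ratio ran from -4.35 in Srebf1, measured from 7 and 400 reads, to 0.91 in Fdps. Fasn had 80 reads in replicate 1 of cKO/AD and 826 in replicate 2, a log2 ratio of -2.89. Acat2, Pmvk and Acaca, by contrast, had ratios of -0.18, -0.02 and -0.02 between the same libraries. In WT/AD the widest ratio was that of Hsd17b7, a sterol ketoreductase, with 11.3 and 3.72 CPM.

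The sum over the 12 genes of sterol sensing, storage and export was 4291 ± 1348 CPM in cKO/AD, 2867 ± 9.53 in WT/AD, 2089 ± 197 in cKO and 2613 ± 67.8 in WT (SD, n = 2 each). The 2 cKO/AD libraries were the highest, at 5244 and 3337 CPM. Relative to WT/AD only 5 of the 12 genes were above 0, and the median log2 fold change over the 12 was -0.18. Of the 12 microglial markers, none rose and 5 fell in cKO/AD relative to WT/AD (41.7%, beside 10.2% of all tested genes), with a median log2 fold change of -0.59; with the GC trend removed 2 fell and the median was -0.01. No listed marker of oligodendrocytes, oligodendrocyte precursors, astrocytes, neurons, endothelial cells or mural cells was at 0 in a whole group. The markers of endothelial cells summed to 204 ± 52.6 CPM in cKO/AD, 337 ± 35.3 in WT/AD, 227 ± 6.08 in cKO and 767 ± 4.20 in WT, highest in WT.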
